A study of Mus musculus with 15 samples.

Results

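The step from CT12 to CT16 is the start of the subjective night, the part of the free-running day in which mice become active and feed. It was followed in 4 of the 14 mouse liver ribosome profiling libraries for which a table of counts was given, namely the 2 libraries named CT12 and the 2 named CT16. All mice were wild-type C57BL/6N males of 8 to 10 weeks, kept for 2 weeks in 12 h of light and 12 h of dark and then moved to constant darkness, and whole livers were taken every 4 h from CT0 to CT24 after 24 h in the dark. By design the CT12 and CT16 groups differ in the time of death, and each mouse gave 1 library. Whether the groups also differ in preparation or sequencing is not stated. No drug or mutation enters the comparison, and both groups were in darkness. The reads are fragments of mRNA protected by a ribosome, so a level here is ribosome binding, which depends on the amount of an mRNA as well as on its translation.

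The liver clock is a loop in which BMAL1 (gene Arntl) and CLOCK activate genes through E-box sequences. The PER and CRY proteins among the products then repress that activity. A second loop links it to Arntl, whose promoter is repressed by REV-ERB (Nr1d1, Nr1d2) and activated by ROR proteins through a sequence called the RORE. PAR bZIP factors such as DBP carry the rhythm on to genes of metabolism through the D-box. Feeding and body temperature are further daily signals to the liver, the first acting on genes of glucose and lipid handling and the second on heat shock genes.

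Between CT12 and CT16 the activators Arntl and Clock and the repressor Cry1 rose, while Nr1d1 and Dbp fell. Of 19 heat shock chaperone genes 7 rose, a count that single libraries change, as did Ppp1r3b of glycogen synthesis and Agpat2 of lipid synthesis. Pck1, Lpin1 and Pfkfb3 fell. Of 17299 transcripts averaging 10 or more counts, 249 (1.44%) changed at an adjusted p under 0.05 in edgeR's quasi-likelihood test, in which the spread was estimated from all 14 libraries. Binding was higher at CT16 for 180 of them (1.04%) and lower for 69 (0.399%), and 2073 transcripts had an unadjusted p under 0.05. With 1 transcript kept per named gene, the one with the highest mean count, 112 of 11655 genes were higher (0.961%) and 38 were lower (0.326%).

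In none of these 150 genes did the 2 CT12 libraries overlap with the 2 CT16 libraries. Over all 11655 genes, both CT16 libraries lay above both CT12 libraries in 20.7% and below them in 19%. The median log2 change was 1.23 among the 112 genes that rose and -1.16 among the 38 genes that fell. The median over all genes tested was 0.01. The split between rises and falls depends on the scaling: with counts scaled by library total alone, which moves the median of all transcripts up by 0.50 on the log2 scale, 733 transcripts were higher and 21 lower, so that 97.2% of the calls were rises, against 70.6% with DESeq2 size factors. Of the genes named below, Fbxo21, Klhl24, Nr1d1, Casp6, Spry4, Vasn, Syt1, Slc5a6, 1810055G02Rik, Pck1 and Noct are falls that lost their call under this scaling (adjusted p from 0.078 for Syt1 to 0.34 for Noct), with the sign kept. The call counts rest on single libraries too. They were 66 without CT12 replicate 1, 471 without CT12 replicate 2, 101 without CT16 replicate 1 and 110 without CT16 replicate 2, although the sign of all 249 held in each of these fits. Only 2 mice stand for each time, and the p-values of the main fit rest on a spread pooled over all 14 libraries. They do not measure the spread between the CT12 and CT16 mice alone.

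**Figure D1:**
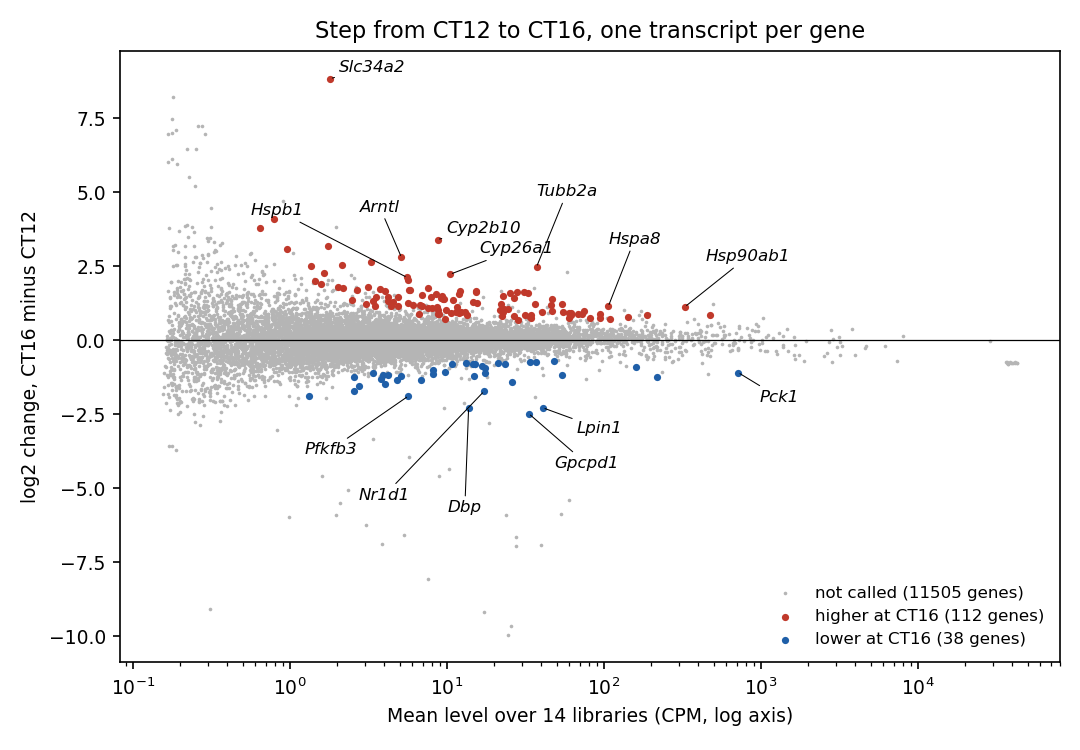
Each point is 1 of 11655 genes, with its mean level over the 14 libraries (CPM, counts relative to the TMM-scaled library size, log axis) against its log2 change from CT12 to CT16. The 112 genes called higher (red) and 38 called lower (blue) lie on both sides of a cloud whose median change is 0.01, and the gray points with the strongest falls include pancreatic enzyme genes.

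The 4 libraries held 90458783 and 78144403 counts at CT12 and 46583013 and 52332008 at CT16. Without the major urinary protein (Mup) transcripts the totals were 35532809 and 22929935 at CT12 and 26745642 and 19969964 at CT16, and the groups overlapped. A read may have been counted in several transcripts of a gene. Every count of CT16 replicate 2 is even. The labels list a second run of this library and place its data in the same table, so it was counted as 1 library. Halving its counts left 246 of the 249 calls in place. The Mup transcripts took 60.7% and 70.7% of the counts at CT12 and 42.6% and 61.8% at CT16, and leaving them out kept 245 of the 249 calls. Summed hepatocyte markers, such as albumin and transthyretin, stood at 51700 and 39780 CPM at CT12 and 49760 and 40740 CPM at CT16, which fits the label of liver.

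Sums over the markers of several other cell types were lower in both CT16 libraries than in both CT12 libraries. The sum was 200.2 and 183.3 CPM at CT12 and 174.1 and 142.9 CPM at CT16 for endothelial cells, and 229.6 and 217.9 CPM against 202.1 and 175.8 CPM for stellate cells. For Kupffer cells and macrophages it was 189.4 and 169.7 CPM against 129.1 and 166.4 CPM. Cholangiocytes had 18.6 and 15.5 CPM against 14.1 and 13.2 CPM in sum, although 4 of their 6 tested members were higher in both CT16 libraries and the list median was 0.43. Neutrophils had 1.33 and 1.30 CPM against 0.421 and 0.319 CPM, with 2 of the 7 neutrophil markers at 0 in all 4 libraries. The sums for lymphocytes, erythroid cells and adipocytes overlapped between the groups. No tested member of these lists passed the test, and in whole tissue fewer cells of a type and less RNA per cell cannot be told apart. Pancreatic acinar markers summed to 44.7 CPM in CT12 replicate 2, against 4.34 CPM in CT12 replicate 1 and 3.31 and 2.71 CPM at CT16, lower in both CT16 libraries too, and none of the 16 was called. The same sum reached 4649 CPM in CT20 replicate 2, a library that enters only the estimate of the spread. Without it 294 transcripts were called, 248 of them among the 249. The part of these cells in the changes below was not tested.

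The activators Arntl and Clock rose from their lowest mean of the day, at CT12. Arntl, on chromosome 7 (GRCm38, chr7:113178471-113314126), was at 0.568 and 0.296 CPM at CT12 and at 2.72 and 3.51 CPM at CT16. Both CT16 libraries were several times above both CT12 libraries, and the log2 change was 2.81 ± 0.40 (SE, n = 2 per time, edgeR adjusted p = 0.0011). Its mean went on to 8.22 CPM at CT20, so CT16 lies partway up the rise. Clock (chr5:76209868-76305603) was at 3.60 and 2.68 CPM at CT12 and 7.42 and 6.57 CPM at CT16, with a log2 change of 1.15 ± 0.22 (edgeR adjusted p = 0.014). Clock lost its call without CT12 replicate 2 (adjusted p = 0.063) and without CT16 replicate 1 (adjusted p = 0.11), whereas Arntl kept its own with any of the 4 libraries left out. Npas2, a relative of Clock, had no count in either CT12 library and 6 and 0 counts at CT16, and no fold is given.

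Of the 6 genes of the PER, CRY and CIART group, which hold back BMAL1 and CLOCK, only Cry1 passed the test. Cry1 (chr10:85131700-85185054) rose from 2.63 and 2.82 CPM to 10.0 and 5.86 CPM, a log2 change of 1.55 ± 0.26 (edgeR adjusted p = 0.0047). The groups did not overlap, but the CT16 libraries differed from each other, and without CT16 replicate 1 the log2 change was 1.11 (adjusted p = 0.095). It also missed the threshold without CT12 replicate 1 (adjusted p = 0.077). Cry2 did not move with it, at 8.43 and 8.45 CPM against 8.81 and 9.28 CPM (log2 change 0.10 ± 0.22).

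The Period genes took different directions without passing the test. Per2 stood at 7.50 and 8.78 CPM at CT12 and at 15.4 and 15.9 CPM at CT16, its highest time (log2 change 0.94 ± 0.31, edgeR adjusted p = 0.18). Per1 went the other way, from 9.53 and 12.9 CPM to 7.52 and 4.86 CPM (-0.85 ± 0.39, edgeR adjusted p = 0.39). In both genes the groups did not overlap. Per3 had 4.97 and 3.65 CPM against 2.17 and 3.35 CPM. Ciart, a further repressor of the BMAL1 and CLOCK pair, had 8.37 and 6.11 CPM against 2.30 and 1.43 CPM, a log2 change of -1.95 whose SE of 0.63 left it at an edgeR adjusted p of 0.17.

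Nuclear receptors of the second loop changed as well. Nr1d1, which encodes REV-ERBα (chr11:98767932-98775377), fell from 14.6 and 26.3 CPM to 8.21 and 4.10 CPM, and the log2 change was -1.72 ± 0.35 (edgeR adjusted p = 0.020). It had already fallen from its highest mean, 59.7 CPM at CT8. The call was lost without CT12 replicate 2 (adjusted p = 0.085) and without CT16 replicate 2 (adjusted p = 0.19). Nr1d2, the gene of REV-ERBβ, was also lower in both CT16 libraries, at 6.76 and 8.57 CPM against 14.7 and 17.2 CPM, but did not pass (-1.06 ± 0.31, edgeR adjusted p = 0.11). Rora was at 6.99 and 6.75 CPM against 8.33 and 9.04 CPM and did not pass.

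Dbp showed the strongest fall among the PAR bZIP factors, the activators that bind the D-box. Dbp (chr7:45705100-45710203) was at 36.2 and 52.5 CPM at CT12 and at 9.32 and 8.88 CPM at CT16. This was a log2 change of -2.28 ± 0.36 (edgeR adjusted p = 0.0029), or 4.87-fold, and no single library carried the call. Tef (21.2 and 19.1 CPM against 16.2 and 13.98 CPM) and Hlf (7.26 and 8.09 CPM against 13.2 and 7.69 CPM) did not pass. Nfil3, the repressor that competes for the D-box, was higher in both CT16 libraries at 7.34 and 6.37 CPM against 2.78 and 4.09 CPM, with an edgeR adjusted p of 0.20. Neither of the DEC repressor genes, Bhlhe40 and Bhlhe41, passed, and both overlapped between the groups. In all, 6 of the 19 genes in these 5 clock groups were called, 4 higher and 2 lower, where 0.961% and 0.326% of all genes were, and between 4 and 5 were called with 1 library of the step left out.

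Among 14 other output genes of the clock, 1 rose and 1 fell, against 0.961% and 0.326% of all genes. Lonrf3, a RING finger gene, went from 0.839 and 0.417 CPM to 2.17 and 2.59 CPM (log2 change 1.90 ± 0.41, edgeR adjusted p = 0.025). Noct, the gene of the phosphatase nocturnin, halved from 24.9 and 28.6 CPM to 14.5 and 12.0 CPM (-1.02 ± 0.23, edgeR adjusted p = 0.031). The call of Noct was lost with each of the 4 libraries left out (adjusted p from 0.084 to 0.22), and that of Lonrf3 with each but CT12 replicate 1 (adjusted p from 0.089 to 0.14). Usp2, a deubiquitinase gene, narrowly missed the threshold, with 33.2 and 31.8 CPM against 18.2 and 15.8 CPM (-0.93 ± 0.23, edgeR adjusted p = 0.054). Rgs16, a regulator of G protein signalling, had 14.9 and 2.59 CPM at CT12 and 0.664 and 0.040 CPM at CT16, so its CT12 mice differed widely and it did not pass (edgeR adjusted p = 0.082).

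**Figure D2:**
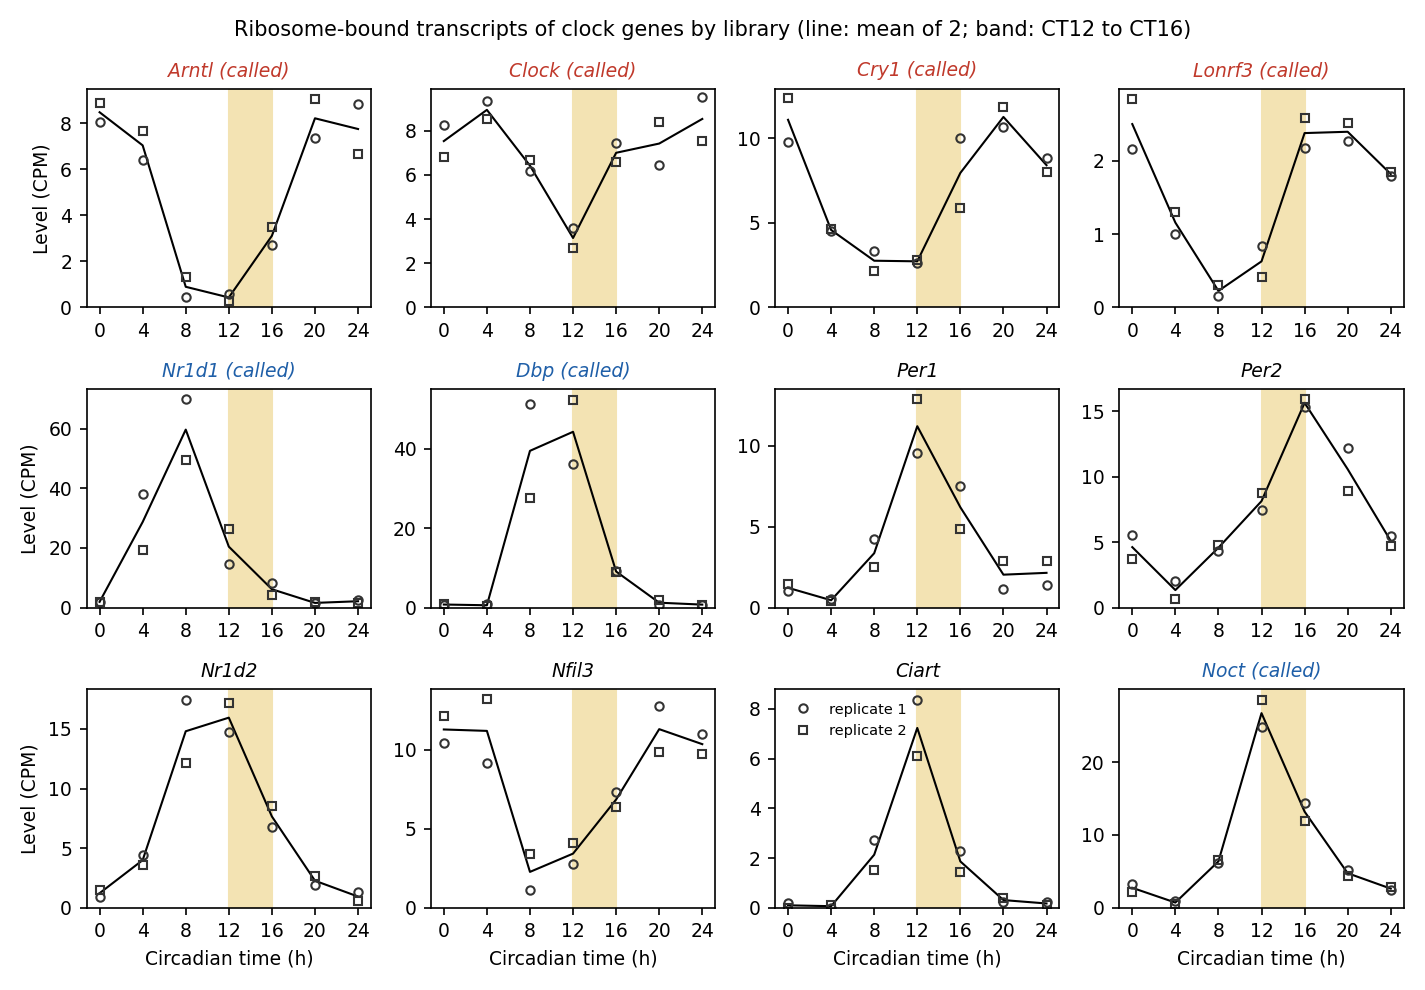
Levels (CPM, linear axis from 0) of 12 clock and clock output genes in each of the 14 libraries against circadian time, with the line through the mean of 2 libraries and the band marking CT12 to CT16. In the band Arntl rises from 0.43 to 3.11 CPM on average and Dbp falls from 44.3 to 9.10 CPM, while Per2 reaches its highest mean of 15.7 CPM.

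Sequence motifs of the clock were looked for in the RefSeq promoter windows of GRCm38.p6, 250 bases before to 50 bases after each gene start, on both strands. The E-box CACGTG stood in 7.15% of all 32851 windows, the E-prime box CACGTT in 4.68%, the D-box (TTATGTAA or TTACGTAA) in 1.06% and the RORE core (TAGGTCA or TGGGTCA) in 6.45%. The windows below are those of the called clock and clock output genes that hold one, shown because Arntl, Cry1, Lonrf3 and Nr1d1 moved in this step. Each is written 5′ to 3′ on the strand of the gene, with the motif in capitals.
Arntl, RORE core, chr7:113207533-113207555: gcagaaagTAGGTCAgggacgga
Cry1, E-box, chr10:85185100-85185123: gccggtggtCACGTGgggtgcatg
Cry1, E-prime box read from the other strand, chr10:85185119-85185142: cacttcagaAACGTGaggtgccgg
Lonrf3, E-box, chrX:36328355-36328378: ggtaggagtCACGTGgttgcgttt
Nr1d1, E-prime box read from the other strand, chr11:98775391-98775414: acagatctcAACGTGccggctgct

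In the promoter of Arntl the RORE core began 31 bases into the transcribed part, and in Cry1 the E-box and the E-prime box began 60 and 79 bases before the start. Nr1d1 had its E-prime box 28 bases before the start, and Lonrf3 its E-box 45 bases before it. The windows of Clock, Dbp and Noct held none of the 4 clock motifs, which says only that these letters are not in those 300 bases. Per gene, an E-box was found in 13 of the 88 rising genes with a promoter entry (14.8%), in 4 of the 31 falling genes (12.9%) and in 11.8% of all tested genes with an entry. The RORE core was found in 10 of 88 (11.4%), 3 of 31 (9.68%) and 6.57%. Of the metabolic genes described below, Pfkfb3 and Insig1 held an E-box and Cyp26a1 an E-prime box. These shares were not tested. A match is a description of letters and not a binding site.

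Heat shock chaperones formed the list with most rises. These proteins fold or hold other proteins, and most are made in larger amounts under the control of HSF1 when the temperature rises. Of 19 members tested, 7 rose, where 0.961% of all genes did, none fell and 18 had a positive log2 change, with a median of 0.85 against 0.01 over all genes. In 14 of the 19 both CT16 libraries lay above both CT12 libraries, as they did in 20.7% of all genes. Hsp90ab1, the constitutive cytosolic HSP90, went from 251.4 and 240.0 CPM to 448.9 and 630.5 CPM (log2 change 1.14 ± 0.20, edgeR adjusted p = 0.0082). Its inducible relative Hsp90aa1 went from 17.04 and 20.8 CPM to 42.5 and 71.2 CPM (1.59 ± 0.31, edgeR adjusted p = 0.016). For both HSP90 genes each CT16 library lay above both CT12 libraries.

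Hspa8, the constitutive HSP70, had 113.2 and 102.6 CPM at CT12 and 228.5 and 249.8 CPM at CT16 (1.15 ± 0.23, edgeR adjusted p = 0.020). Hsph1, an exchange factor of HSP70, had 19.6 and 27.9 CPM against 62.3 and 86.3 CPM (1.65 ± 0.31, edgeR adjusted p = 0.011). Hspb1, the small heat shock protein HSP27, was low at CT12, with 1.09 and 3.03 CPM, and stood at 9.22 and 8.49 CPM at CT16 (2.13 ± 0.39, edgeR adjusted p = 0.011). The HSP90 partners Fkbp4 (0.91 ± 0.16, edgeR adjusted p = 0.0065) and Chordc1 (0.85 ± 0.18, edgeR adjusted p = 0.026) rose as well. Just outside the threshold were Hspa1b (2.04 ± 0.50, edgeR adjusted p = 0.052), an inducible HSP70, and the co-chaperone Stip1 (0.99 ± 0.24, edgeR adjusted p = 0.053). The mitochondrial chaperone genes Hspd1 (0.28 ± 0.17) and Hspe1 (0.35 ± 0.20) and the regulator Hsf1 (0.10 ± 0.37) did not pass.

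The number of chaperone calls depended on the libraries. It was 0 without CT12 replicate 1, 7 without CT12 replicate 2, 4 without CT16 replicate 1 and 1 without CT16 replicate 2, and the list median stayed between 0.61 and 0.96. Genes of near-identical sequence, such as Hspa1a and Hspa1b or the copies of Hspa8 and Hsp90ab1 elsewhere in the genome, can share or lose reads of this length, so their values are uncertain. The ER chaperones and genes of the unfolded protein response, a separate list of 23, had no call and a median of 0.22. The 5 cold-inducible RNA binding protein genes had none and a median of -0.21. Of all genes 0.961% were called higher and 0.326% lower.

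**Figure D3:**
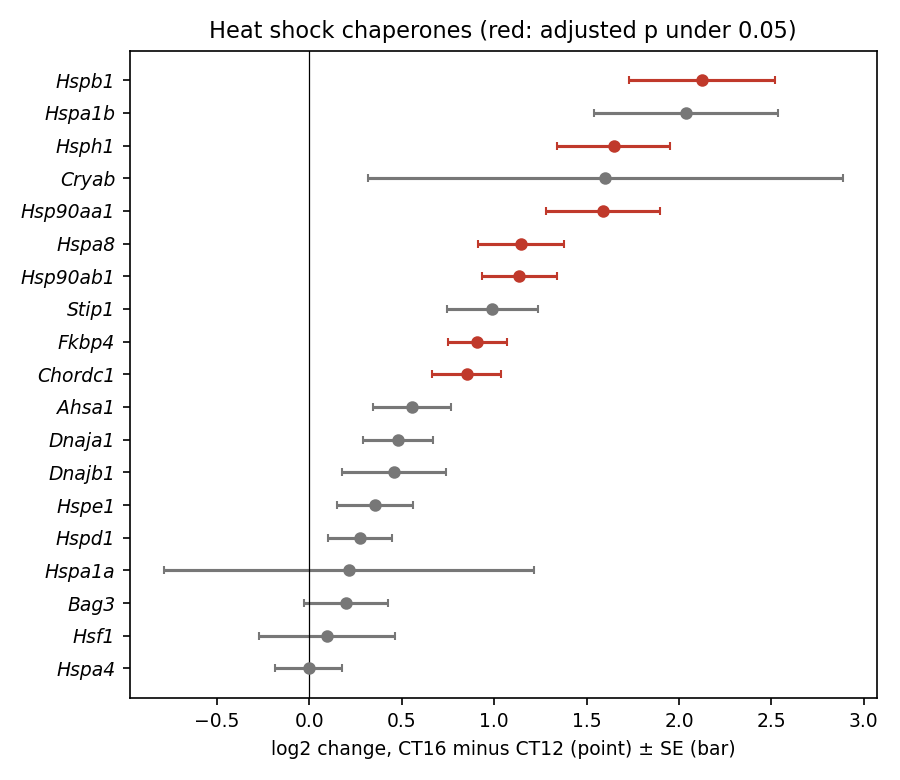
Log2 change from CT12 to CT16 (point) with its standard error (bar, n = 2 libraries per time) for the 19 heat shock chaperone genes tested. The 7 called genes (red) lie between 0.85 and 2.13, and 18 of the 19 points are above 0.

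The heat shock element was searched as GAANNTTC, which stood in 7.86% of all promoter windows and in 7.10% of the tested genes with an entry. Of the called chaperone genes, 4 had a promoter entry, and all 4 (Chordc1, Fkbp4, Hspb1 and Hsph1) held the motif. Of the list members that were not called, 6 of 10 with an entry held it, so it does not separate the called from the other members. The matches of Hspb1, Fkbp4 and Hsph1, and the pair of Acnat2, which is no chaperone but was among the largest rises, are shown with the motif in capitals.
Hspb1, chr5:135887794-135887817: caacaagaGAAGTTTCcagatggg
Hspb1, chr5:135887814-135887837: tgggggcaGAACCTTCctggcccc
Fkbp4, chr6:128438792-128438815: cttctctaGAAAGTTCtccgctcc
Hsph1, chr5:149636280-149636303: agattctgGAAAGTTCtcctcagt
Acnat2, chr4:49405890-49405913: ttcagttgGAATTTTCtatagtag
Acnat2, chr4:49405753-49405776: agggaaaaGAATGTTCcagaagga

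Genes of glucose handling changed in both directions. Ppp1r3b, which targets a phosphatase to glycogen, rose from 36.7 and 23.3 CPM to 72.6 and 66.1 CPM (1.21 ± 0.24, edgeR adjusted p = 0.018). Pfkfb3, one of the enzymes that set fructose 2,6-bisphosphate, fell from 21.1 and 19.2 CPM to 5.54 and 5.38 CPM (-1.88 ± 0.22, edgeR adjusted p = 1.6e-04). In all, 3 of the 18 genes of glycolysis and glycogen tested were called, 2 higher and 1 lower, against 0.961% and 0.326% of all genes, and the list median was 0.19. The higher calls numbered 1 without CT12 replicate 1 and 0 without any other of the 4 libraries.

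Of 15 genes of glucose output and fasting, Pck1 alone was called (0.326% of all genes fell), and 2 were called lower without CT12 replicate 2. Pck1, the rate-limiting enzyme of gluconeogenesis, halved from 1601 and 1581 CPM to 757.3 and 736.3 CPM, and the 2 mice of each time were close to each other (-1.09 ± 0.23, edgeR adjusted p = 0.024). Igfbp1, an insulin-repressed gene, had 22.3 and 3.53 CPM against 4.57 and 1.27 CPM and overlapped between the groups. The calls of Ppp1r3b and Pck1 were lost in 3 of the 4 fits that leave out a library, all but the fits without CT12 replicate 1 and CT12 replicate 2 respectively, with adjusted p up to 0.11 and 0.15. That of Pfkfb3 held in each.

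Lpin1, which encodes the phosphatidate phosphatase lipin 1 and also acts as a coactivator of fat oxidation genes, had the lowest p-value of the step. It fell from 204.6 and 177.4 CPM to 34.3 and 44.3 CPM, a log2 change of -2.28 ± 0.20 (edgeR adjusted p = 1.3e-05), and its mean at CT8 was only 23.3 CPM, so CT12 was a sharp maximum. Agpat2, the acyltransferase 1 step before it in triglyceride synthesis, rose from 30.9 and 37.8 CPM to 69.3 and 61.8 CPM (0.93 ± 0.20, edgeR adjusted p = 0.022). Those were the 2 calls among 17 genes of fatty acid and triglyceride synthesis, of which 16 had a positive log2 change (median 0.34). Of all 11655 genes 0.961% were called higher, 0.326% lower, and 5921 had a positive log2 change. Fasn, the fatty acid synthase, had 358.8 and 226.5 CPM against 493.1 and 872.2 CPM (1.22 ± 0.31) and did not pass (edgeR adjusted p = 0.060). The lipogenic factor Thrsp, at 261.4 and 133.9 CPM against 384.9 and 410.4 CPM, did not pass either.

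Of 24 genes of cholesterol synthesis and uptake, Insig1 was the only one called, against 0.961% called higher of all genes. Insig1, the sterol-regulated anchor of SREBP in the ER, rose from 44.3 and 42.7 CPM to 67.9 and 89.2 CPM (0.85 ± 0.17, edgeR adjusted p = 0.018). Srebf2 (0.75 ± 0.19, edgeR adjusted p = 0.057) and Lss (1.00 ± 0.27, edgeR adjusted p = 0.080) fell just short. The list median was 0.26, and it lay between 0.07 and 0.49 with 1 library left out. In fatty acid oxidation Acot1, an acyl-CoA thioesterase, was the 1 call of 23 genes, against 0.961% called higher of all genes (1.69 ± 0.38, edgeR adjusted p = 0.031), with 2.04 and 3.86 CPM against 12.7 and 6.25 CPM. Agpat2, Insig1 and Acot1 lost the call without CT12 replicate 1, with adjusted p of 0.25, 0.12 and 0.31. Insig1 lost it without CT12 replicate 2 (adjusted p = 0.058) and CT16 replicate 2 (adjusted p = 0.14) too, Agpat2 without either CT16 library (adjusted p = 0.15 and 0.058) and Acot1 without CT16 replicate 1 (adjusted p = 0.36). The calls in fatty acid oxidation numbered 4 without CT12 replicate 2 and 3 without CT16 replicate 2, all higher, and the cholesterol list had 2 without CT16 replicate 1.

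Among the drug-metabolising enzymes 3 of 29 tested were called, all higher, against 0.961% of all genes, and the count was 1 without CT12 replicate 1, CT12 replicate 2 or CT16 replicate 1. Cyp26a1, which breaks down retinoic acid, rose from 3.81 and 2.42 CPM to 15.4 and 14.2 CPM (2.24 ± 0.38, edgeR adjusted p = 0.0050) and kept the call with any of the 4 libraries left out. Cyp2b10 and Cyp2a4 rested on 1 mouse: Cyp2b10 had 4.17 and 0.991 CPM against 48.8 and 6.89 CPM, and Cyp2a4 had 0.691 and 0.696 CPM against 5.99 and 1.83 CPM. Without CT16 replicate 1 their log2 changes went from 3.41 and 2.50 to 1.39 and 1.40, with adjusted p of 0.51 and 0.53. Without a CT12 library both also missed the threshold (adjusted p from 0.053 to 0.26). Cyp2a4 and Cyp2b10 each have close paralogs with which reads may be shared or lost. Cyp4a14, a fatty acid hydroxylase outside that list, was also high in this mouse, at 198.8 CPM against 37.9 CPM in CT16 replicate 2.

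**Figure D4:**
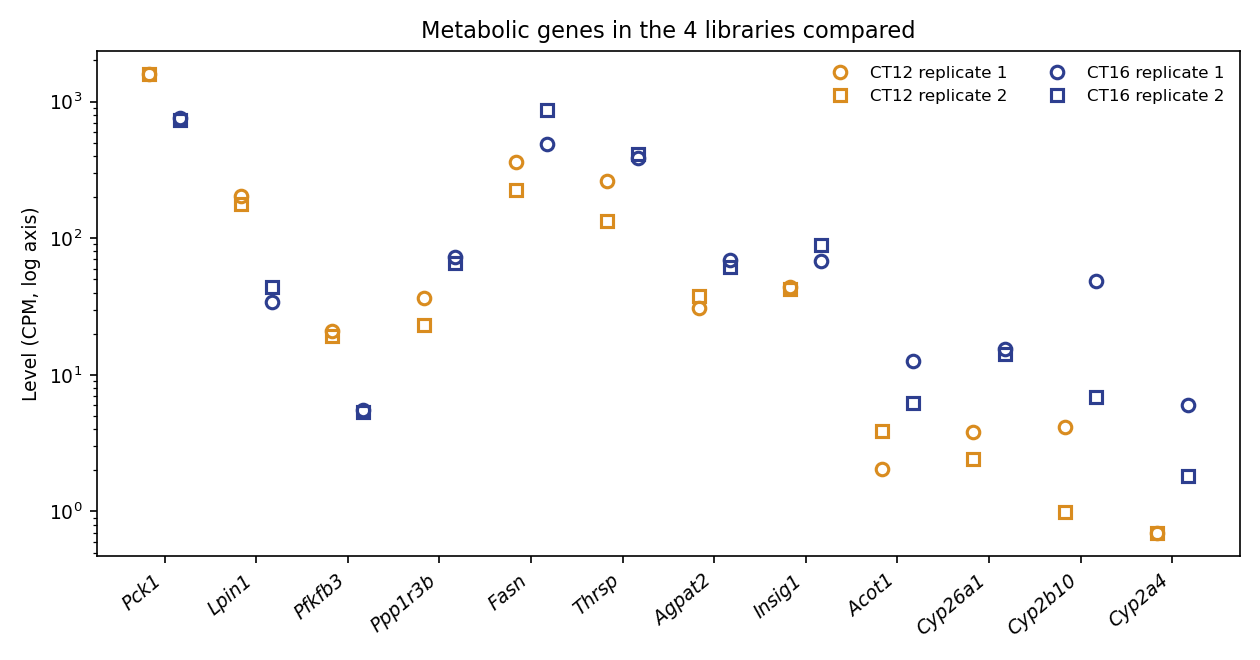
Levels (CPM, log axis) of 12 metabolic genes in the 2 CT12 and the 2 CT16 libraries, one symbol per library. Pck1, Lpin1 and Pfkfb3 are lower in both CT16 libraries and the other 9 genes higher in both, with Cyp2b10 spread from 6.89 to 48.8 CPM at CT16.

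The 12 largest rises among genes with a mean of at least 100 counts included Cyp2b10, Arntl, Cyp26a1 and Hspb1, given above. Slc34a2, a phosphate transporter gene, had no count in either CT12 library and 90 and 22 counts at CT16. Set against a floor of 3 counts in each CT12 library, it was at least 21.3-fold higher, and at least 9.82-fold without CT16 replicate 1. Acnat2, an amino acid N-acyltransferase gene, had 0.407 and 0.261 CPM against 3.82 and 2.43 CPM (3.20 ± 0.54, edgeR adjusted p = 0.0049), with 33 and 15 counts behind the CT12 values. Tubb2a, a beta-tubulin gene, went from 5.96 and 3.69 CPM to 32.6 and 21.5 CPM (2.48 ± 0.31, edgeR adjusted p = 3.2e-04), and near-identical tubulin genes may share or remove its reads.

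Abtb2, a gene of an ankyrin repeat and BTB domain protein, went from 1.86 and 1.50 CPM to 7.44 and 6.37 CPM (2.03 ± 0.24, edgeR adjusted p = 1.6e-04). The remaining rises were Lrfn3, Lgalsl, Slc1a4 and Celsr1, with log2 changes from 1.79 to 2.65. Lgalsl, Tubb2a and Abtb2 kept the call with any of the 4 libraries left out. Celsr1 lost it in all 4 of these fits, and Slc1a4 in each but that without CT12 replicate 2. Slc34a2, Lrfn3 and Acnat2 lost it without CT16 replicate 1, with adjusted p of 0.15, 0.076 and 0.055, and Slc34a2 and Lrfn3 without CT12 replicate 1 as well (adjusted p = 0.16 and 0.071).

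The 12 largest falls were led by Gpcpd1, Dbp, Lpin1 and Pfkfb3. Gpcpd1 (chr2:132529082-132578248), which cleaves glycerophosphocholine, fell from 136.0 and 85.3 CPM to 19.4 and 20.2 CPM (-2.48 ± 0.27, edgeR adjusted p = 1.1e-04), a 5.58-fold drop that every left-out fit kept. Another transcript in the files has the same counts. Fbxo21, an F-box protein gene, fell from 31.8 and 38.3 CPM to 13.3 and 13.3 CPM (-1.40 ± 0.20, edgeR adjusted p = 0.0012), and it too kept the call. Syt1, Spry4, Vasn, Casp6, Slc5a6 and 1810055G02Rik fell by 1.29 to 1.73 on the log2 scale, and each lost its call in 1 or more of the 4 fits that leave out a library. Of the 42 named genes that were called, 13 stayed called in all 4 of these fits, and none changed sign.

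Other called genes, chosen here after their values were seen, include further tubulins, Tuba4a (53.7 and 49.9 CPM against 90.1 and 83.4 CPM) and Tubb5 (25.0 and 24.6 CPM against 37.7 and 45.9 CPM). Foxa2, a hepatocyte transcription factor gene, went from 5.62 and 8.44 CPM to 17.8 and 18.5 CPM, and Irs1, an insulin receptor substrate, from 3.89 and 6.51 CPM to 10.6 and 8.84 CPM. Slc7a2, a carrier of cationic amino acids, went down from 503.0 and 366.6 CPM to 191.1 and 180.8 CPM. All 5 of these genes had groups that did not overlap.

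Of all genes 0.961% were called higher and 0.326% lower, shares at which lists of the sizes below hold few calls or none. Several large gene groups had no call. These were the 79 cytosolic ribosomal protein genes (median log2 change 0.08), 32 translation factors (0.09), 27 genes of ribosome biogenesis (-0.10), 27 of the urea cycle and amino acid breakdown (0.15), 15 of bile acid synthesis and transport (-0.05) and 8 of polyamine synthesis (-0.23). The 14 tested glucocorticoid-responsive genes (-0.23), 12 immediate early genes (0.31), 17 genes of growth and the cell cycle (0.03), 27 of plasma proteins and apolipoproteins (-0.19) and 15 of circadian kinases and ubiquitin ligases (0.03) had none either. Nr0b2, a nuclear receptor that represses bile acid synthesis, had the lowest p of the bile acid list, with 18.1 and 16.8 CPM against 11.0 and 3.55 CPM (edgeR adjusted p = 0.087). Fga, a fibrinogen chain, had the lowest of the plasma proteins, with 2177 and 1625 CPM against 1260 and 1107 CPM (edgeR adjusted p = 0.094). The acute-phase genes Saa1 and Saa2 were high in CT12 replicate 1 alone, with 149.0 and 103.9 CPM there and at most 25.3 CPM in the other 3 libraries.

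These lists are not all empty under other settings. With total count scaling 3 immediate early genes, 2 of the urea cycle list and 2 of growth were higher, and with no filter on low counts 7 plasma protein genes and 3 of bile acids were lower. Without CT12 replicate 2, 5 plasma protein genes were called lower and 1 immediate early gene higher. Without CT16 replicate 1 the glucocorticoid list had 1 lower call, and without either CT16 library the bile acid list had 1. The medians of the glucocorticoid and plasma protein lists turned to 0.34 and 0.07 without CT12 replicate 1, and that of the ribosomal proteins to -0.15 without CT12 replicate 2. The medians for translation factors, bile acids, polyamines, growth and the circadian kinases and ligases changed sign in 1 or more of these fits too, so no direction is given for these lists.

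Across the day, CT12 was the low point of most genes that rose. The lowest of the 7 time means was at CT12 for 86 of the 112 rising genes and at CT8 for 21, and the highest was at CT0 for 35, at CT16 for 33, at CT20 for 19 and at CT24 for 12. Of the 38 falling genes, 24 had their highest mean at CT12 and 12 at CT8, and 16 had the lowest at CT16. CT12 and CT16 chose these genes, so the share at those times is a description. A group including Arntl and Tubb2a kept climbing after CT16, whereas Hspa8, at 239.1 CPM on average at CT16, was back at 83.4 CPM by CT20.

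**Figure D5:**
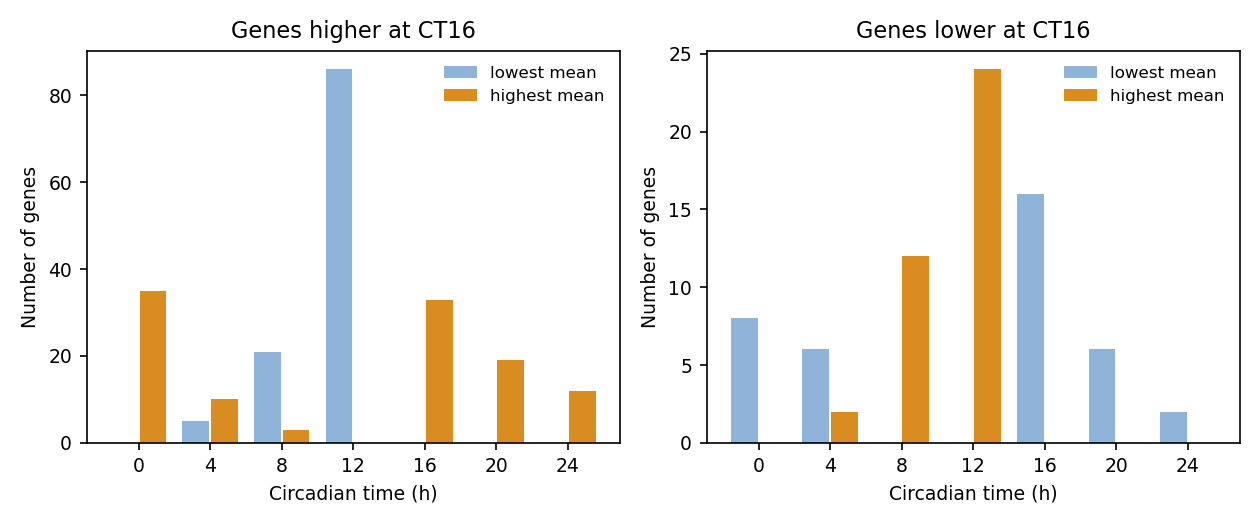
Number of called genes by the circadian time (h) of their lowest and highest mean level, for the 112 genes higher at CT16 (left) and the 38 lower at CT16 (right). The lowest mean of 86 rising genes is at CT12, and the highest mean of 24 falling genes is at CT12.

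The step from CT0 to CT4 lies 12 h away and shares no library with CT12 or CT16. It had 63 calls (0.364%). Of the 112 genes that rose from CT12 to CT16, 90 (80.4%) had a negative log2 change from CT0 to CT4, as had 49% of all 11655 genes, and of the 38 that fell, 29 (76.3%) had a positive one, as had 51% of all. The difference between the steps was called for 261 transcripts (1.51%), higher from CT12 to CT16 for 181 (1.05%) and lower for 80 (0.462%). It was called for 70 of the 112 rising genes and 19 of the 38 falling ones, but it contains the CT12 and CT16 values that chose these genes, so this share is a description. The count ranged from 79 without CT4 replicate 2 to 512 without CT12 replicate 2.

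Nr1d1 had the largest difference of the 6 called clock genes: it fell by 1.72 on the log2 scale from CT12 to CT16 and went up by 3.89 from CT0 to CT4, a difference of -5.62 ± 0.52 (edgeR adjusted p = 1.0e-04). Cyp26a1 rose by 2.24 with a change of -2.69 in the morning step. Hspa8 rose by 1.15 with -1.63 in the morning, and its difference of 2.78 ± 0.33 had the lowest p of the called chaperones shown here (edgeR adjusted p = 2.8e-04). Clock, Dbp and Noct, in contrast, had no called difference (edgeR adjusted p of 0.17, 0.11 and 0.26). Per2, which did not pass for the step itself, had a called difference of 2.71 (edgeR adjusted p = 0.0065).

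The place of the ribosomes within transcripts was compared next. The 5′UTR held 6.32% and 8.39% of the counts at CT12 and 5.93% and 5.72% at CT16. Without the Mup transcripts these shares were 3.95% and 4.51% against 4.62% and 2.98%, and the groups overlapped. For each of 7640 transcripts that averaged 10 or more counts in both regions, the ratio between 5′UTR and CDS reads was tested on the log2 scale with limma. None was called (0%), and 383 transcripts (5.01%) had an unadjusted p under 0.05. The count was also 0 with 4 other settings of the pseudocount and the minimum, but 310 without CT12 replicate 2 and 2 without CT16 replicate 1. The median ratio change moved from -0.54 without CT16 replicate 1 to 0.19 without CT16 replicate 2, so no common direction was measurable with these libraries.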

How the data were processed

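For each library the authors deposited a table of raw counts per RefSeq transcript (28167 rows), with leader, coding and trailer reads in separate columns. Per the study's methods, RNase I footprints were clipped, freed of rRNA, aligned to mm10 (Bowtie 2.1.0.0 and SAMtools 0.1.19.0 per the labels), and reads of 26 to 32 nt were assigned to the A site. Reads with an exact match were kept, and density profiles used those with a unique location. Whether the tables rest on the same reads, and how a read in several transcripts was counted, is not given in the sources used here.

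Counts of the 3 regions were summed, transcripts with a mean of at least 10 over 14 libraries kept, and 1 term per time point fitted with edgeR 4.0.16 (R 4.3.3, TMM, quasi-likelihood F test, Benjamini-Hochberg threshold 0.05). Totals per library ran from 40593197 to 90458783. The 5′UTR to CDS ratio (pseudocount 0.5) was tested with limma 3.58.1. DESeq2 1.42.0 was an alternative. CPM are after TMM scaling, and SE is the absolute log2 change over the root of F. Libraries were grouped by name, also the CT24 pair, whose time label reads CT00. Genes were named from RefSeq tables of GRCm38.p6.

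The members and gene lists were chosen with earlier results of these data known. Named genes are all clock list members, the 12 largest called rises and falls (mean of at least 100 counts, no overlap), up to 4 genes with the lowest p per other list, and 5 per direction for the difference between steps. Alternatives were other scalings, filters, regions and tools, a halved CT16 replicate 2, the replicate number as a block and each library left out. Each test was run on counts simulated without differences between libraries of a group other than depth and random spread. This check does not cover the dependence on single libraries given above. The crossed block and the fit without CT20 replicate 2 were added after the data were seen. Some called genes are counted in the totals and lists but not reported here by name.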

Additional observations from a re-analysis of the deposited data

Results flagged for a closer look

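For 9 genes the change from CT12 to CT16 differed from that from CT0 to CT4, by edgeR's test of the difference itself, and they are among those with the lowest p-values in each direction. On the log2 scale the difference was 4.93 for Cyp26a1, 2.78 for Hspa8, 2.65 for Abtb2 and 2.05 for Palld, an actin-associated protein gene. It was -5.62 for Nr1d1, -3.27 for Gpcpd1, -2.24 for Lpin1, -2.11 for Fbxo21 and -2.10 for Klhl24, a substrate adaptor of a ubiquitin ligase. Adjusted p ranged from 1.0e-04 for Nr1d1 to 6.9e-04 for Fbxo21. In Lpin1 the morning step was near 0 (-0.04), whereas in the other 8 genes it had the opposite sign to the evening step.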

How the results depend on the processing

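Main values were 180 transcripts higher and 69 lower at CT16, 7 chaperones, 6 clock genes and 261 differences between steps. Scaling by total count gave 733 higher, 21 lower and 3281 differences, and no filter gave 452 and 273, 10 clock genes and 805 differences. DESeq2's Wald test gave 344 and 194, with 668 differences, and 1 transcript per gene 98 and 33. With the 4 libraries alone the counts were 31 and 23, with 2 chaperones and 3 clock genes. Leaving out 1 library gave 41 to 360 higher, 24 to 111 lower, 0 to 7 chaperones (8 without CT20 replicate 2), 4 to 6 clock genes, 79 to 512 differences and 0 to 310 ratios of 5′UTR to CDS reads. The fit per gene tests fewer transcripts and that of 4 libraries has fewer samples; for the others the cause was not tested.

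Same-numbered CT12 and CT16 libraries deviated with r = -0.107 over transcripts, and 3 of 21 pairs of time points exceeded 0.1, so the numbers were not taken to pair the mice. With the replicate block 200 were higher and 86 lower, with 348 differences, and with the crossed replicate block 193, 79 and 264. Among the 42 called named genes the sign held in all 18 settings, and 626 of 754 values stayed called. Of 108 named genes not called, 115 of 1933 values became called. Without Mup transcripts the difference was -0.44 percentage points in the 5′UTR share, where CT16 replicate 2 alone lay below CT12, and 0.08 in the 3′UTR share, and both overlapped between the groups. With 2 mice per time, small changes of low-count genes cannot be seen.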
